A study of Homo sapiens with 20 samples.

Results

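The genes described here are 10 genes of cellular iron handling: the ferritin chains FTL and FTH1, the ferritin receptor NCOA4, the uptake genes TFRC, STEAP3 and SLC11A2, the exporter SLC40A1, the iron regulatory protein genes ACO1 and IREB2, and HFE. They are 10 of the 18305 genes in an RNA-seq table of human cell lines. The list was drawn up because the RNA level of FTL differs widely between the lines, so differences between lines are given below as a description, with no test. Levels are FPKM, the fragments assigned to a gene scaled by the length of its transcript and by the fragments of the library. Comparison of FPKM between libraries is approximate, since their sum differs from library to library. A fit with a common total (the TPM scale) was therefore also run. All 10 genes were followed through 10 groups of 2 libraries each.

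There were 4 groups of wild-type (WT) cells, 3 from multiple myeloma lines (AMO1, L363 and RPMI-8226, the last given as RPMI in the labels) and 1 from ARH-77, a B-lymphoblastoid line. Each of the 4 lines also had a bortezomib-resistant (BtzR) group, and AMO1 and L363 each had a carfilzomib-resistant (CfzR) group. Bortezomib and carfilzomib both inhibit the proteasome. All cells were cultured in RPMI-1640 with fetal bovine serum, and resistant cells were kept in 90 nM of the drug they resist. The resistant sublines were evolved in vitro, so that resistance and the presence of the drug cannot be told apart, and neither can change in the subline and drift during its culture. The comparison of resistant with WT cells asks what accompanies proteasome inhibitor resistance within a line.

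The summed FPKM of a library was between 457317 and 494850, and between 10455 and 11023 genes reached 1 FPKM. The depth of the libraries is unknown, since FPKM carries no counts. Of 6 plasma cell markers, 5 were at 1 FPKM or more in all 16 myeloma libraries (all but SLAMF7), and likewise 5 of 6 in all 4 ARH-77 libraries (all but PRDM1), with summed levels of 469.4 to 3674 FPKM in the first and 233.5 to 249.7 in the second. The sum of 6 B cell markers set ARH-77 apart, at 370.0 to 485.5 FPKM against 0.23 to 14.14 in the myeloma libraries. In the myeloma libraries 4 of the 6 were always under 1 FPKM. The exceptions were CR2 (5.99 and 5.94 in RPMI-8226 WT) and CD72. CD72 did not separate the lines, at 3.73 to 13.99 in RPMI-8226 libraries and 3.54 to 6.23 in ARH-77. Markers of macrophages and red cell precursors, which are rich in iron genes, were low. In every library 4 of 5 macrophage markers were under 1 FPKM (LYZ was the exception), and in the myeloma lines so were 4 of 5 erythroid markers (HBA1 was the exception). The 2 libraries labelled AMO1 CfzR stood apart from their label. Over all tested genes they correlated with the 6 L363 libraries at r = 0.986 to 0.992 and with the 4 other AMO1 libraries at r = 0.878 to 0.883. Results that rest on them are therefore given both against AMO1 WT and against L363 WT.

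Ferritin is a hollow shell of light and heavy chains in which cells store iron. The heavy chain oxidises iron for storage, and the light chain helps to form the mineral core. Cells take up iron bound to transferrin through the transferrin receptor and export it through ferroportin. When iron is scarce, the iron regulatory proteins bind a short RNA hairpin, the iron-responsive element, which blocks translation where it lies in the 5′ UTR and stabilises the RNA where it lies in the 3′ UTR. Ferritin protein can therefore change with no change in its RNA, and only RNA was measured here. Plasma cells make large amounts of antibody and depend on the proteasome, and proteasome inhibitors are used to treat myeloma.

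The iron-responsive elements are shown because they are the sites through which iron acts on some of these RNAs. The list holds known iron handling genes, so matches among them are background and no result of these data. The search used a C, then any 5 bases, then the loop CAGTGN, with those 5 bases able to pair with the 5 bases that follow the loop (G–T pairs allowed). It was run on the transcript strand of the protein-coding transcripts of GENCODE release 29 (GRCh38), and 291 of 19702 coding genes (1.48%) held a match. Of the 10 members, 4 held at least 1 match. Each line gives 27 bases, 5′ to 3′ on the strand of the gene, with the 6 loop bases in capitals.
FTL, 5′ UTR, chr19:48965336-48965362, plus strand: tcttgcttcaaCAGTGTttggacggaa
FTH1, 5′ UTR, chr11:61967575-61967601, minus strand: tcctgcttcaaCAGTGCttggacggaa
SLC40A1, 5′ UTR, chr2:189580662-189580688, minus strand: aacttcagctaCAGTGTtagctaagtt
TFRC, 3′ UTR, chr3:196050980-196051006, minus strand: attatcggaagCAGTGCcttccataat
TFRC, 3′ UTR, chr3:196050576-196050602, minus strand: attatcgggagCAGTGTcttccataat
TFRC, 3′ UTR, chr3:196050511-196050537, minus strand: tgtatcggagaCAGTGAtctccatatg
TFRC, 3′ UTR, chr3:196050464-196050490, minus strand: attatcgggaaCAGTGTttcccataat
Both ferritin chains and the exporter carried the element before the coding sequence, and TFRC carried 4 matches after it. The match lay in 1 of 1 coding transcript of FTL, 7 of 8 of FTH1, 3 of 4 of TFRC and 1 of 5 of SLC40A1. Other members may hold hairpins of other letters or lengths, which this search does not find. Of the 45 further iron and heme genes on a wider list, ALAS2 and TF held a match.

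FTL (NCBI gene 2512), the ferritin light chain, was at 7274.92 and 7832.94 FPKM in AMO1 WT, 3158.13 and 3434.36 in RPMI-8226 WT, 2447.18 and 2707.49 in ARH-77 WT, and 303.85 and 313.94 in L363 WT. No pair of lines overlapped, and the mean of AMO1 WT was 24.45 times that of L363 WT. FTL had the highest FPKM of all genes in both AMO1 WT libraries, where it made up 1.57% and 1.62% of the summed FPKM. In L363 WT its share was 0.0614% and 0.065%, and its rank was 205 and 189. In bulk RNA, fewer cells that express a gene and less RNA per cell cannot be told apart. Both ferritin genes have processed pseudogenes of near-identical sequence elsewhere in the genome. Reads that fit several copies may have been shared among them, so the absolute levels are uncertain.

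FTH1 (NCBI gene 2495), the heavy chain, ordered the lines differently. It was at 937.75 and 1079.60 FPKM in RPMI-8226 WT, 821.84 and 828.84 in ARH-77 WT, 367.32 and 453.98 in AMO1 WT, and 133.03 and 140.06 in L363 WT. The highest line mean was 7.39 times the lowest, and again no pair of lines overlapped. L363 was lowest for both chains, whereas AMO1 was highest for FTL and second lowest for FTH1. The ratio of FTL to FTH1 FPKM was 19.81 and 17.25 in AMO1 WT. In the other WT lines it lay between 2.241 and 3.368.

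**Figure D1:**
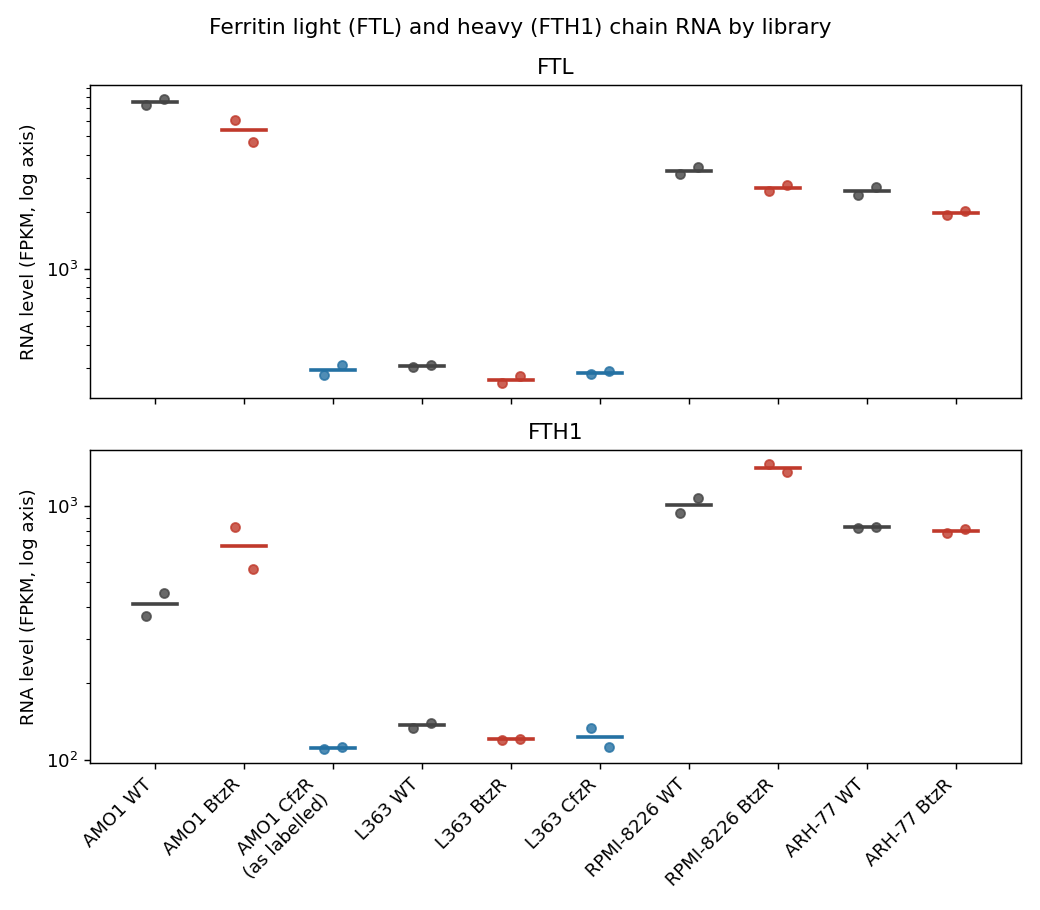
FTL (top) and FTH1 (bottom) RNA in FPKM on log axes for the 10 groups, with points for the 2 libraries of a group, a bar for their mean, and grey for WT, red for BtzR and blue for CfzR. The 6 L363 libraries and the 2 libraries labelled AMO1 CfzR lie between 249.86 and 313.94 FPKM for FTL, while the other libraries lie between 1916.31 and 7832.94 FPKM.

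Within each line, FTL was lower in bortezomib-resistant cells. It was at 6078.58 and 4662.28 FPKM in AMO1 BtzR, below both WT libraries of that line, and the log2-fold change was -0.50 (standard error 0.12, limma adjusted p = 0.0022). It was at 2569.30 and 2752.44 in RPMI-8226 BtzR (log2-fold change -0.31, adjusted p = 0.0359). It was at 1916.31 and 2010.28 in ARH-77 BtzR (log2-fold change -0.39, adjusted p = 0.037). These 3 falls passed the test, as did, in either direction, 51.2% of all genes in AMO1, 54.3% in RPMI-8226 and 13.6% in ARH-77. No BtzR library overlapped the WT libraries of its line, which was not counted over all genes. The AMO1 fall passed with any 1 of the 4 libraries left out, but its size ran from -0.70 without BtzR replicate 1 to -0.31 without BtzR replicate 2 (adjusted p = 0.0446). Plasma cell markers moved both ways. In AMO1 BtzR, SDC1 was lower (1276.12 and 1355.96 FPKM) than in AMO1 WT (3265.9 and 2883.13), and so was IRF4. SLAMF7 was higher there (130.23 and 156.96 against 91.91 and 88.56), and so was PRDM1. In RPMI-8226 BtzR, TNFRSF17 was lower (7.86 and 4.93) than in RPMI-8226 WT (94.0 and 98.13). SLAMF7 was also lower there (0.27 and 0.41 against 0.74 and 0.82), but under 1 FPKM in all of these libraries. XBP1 was higher there (341.32 and 327.31 against 246.33 and 247.79), and so were IRF4 and PRDM1. The part of these markers in the FTL results was not tested. The RPMI-8226 fall did not pass without any 1 of its 4 libraries (adjusted p = 0.0535 to 0.186), and the ARH-77 fall did not pass without either BtzR library or without WT replicate 2 (adjusted p = 0.0962 to 0.187). Quantile normalization, which levels the highest ranks of each library, took the AMO1 value to -1.55 and the ARH-77 value to -0.68.

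In L363 BtzR, FTL was at 249.86 and 274.50 FPKM, below both WT libraries, with a log2-fold change of -0.24 that did not pass (95% interval -0.49 to 0.01, adjusted p = 0.238). It did pass when the L363 BtzR and WT libraries were fitted alone (adjusted p = 0.0292). Averaged over the 4 lines, the FTL change was -0.36 (standard error 0.06, adjusted p = 0.000119), and leaving out single libraries moved it between -0.41 and -0.31. In that average 52.3% of all genes passed. In each of the 4 lines, both BtzR libraries lay below both WT libraries for FTL. How many of all genes show such a pattern was not counted, so it is a description and adds nothing to the tests. A difference between lines in the FTL change was not detected (moderated F test, adjusted p = 0.465). The WT libraries that served as controls here are also among those in which the spread of FTL between lines was seen.

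In AMO1 and RPMI-8226, FTH1 moved the other way from FTL. It rose in AMO1 BtzR to 825.97 and 563.29 FPKM (log2-fold change 0.74, standard error 0.15, adjusted p = 0.000728) and in RPMI-8226 BtzR to 1462.49 and 1363.95 FPKM (log2-fold change 0.49, adjusted p = 0.0112). Both resistant libraries lay above both WT libraries in each of these lines. The AMO1 BtzR replicates differed by 0.55 on the log2 scale, the largest replicate gap for FTH1, and the AMO1 rise was 0.46 without BtzR replicate 1 (adjusted p = 0.0135) and 1.01 without BtzR replicate 2. The RPMI-8226 rise did not pass without BtzR replicate 1 (0.44, adjusted p = 0.0649) or without WT replicate 1 (0.39, adjusted p = 0.103). FTH1 was at 785.25 and 813.03 in ARH-77 BtzR (log2-fold change -0.05, adjusted p = 0.921) and at 120.03 and 120.72 in L363 BtzR (-0.18, adjusted p = 0.541). The change of FTH1 differed between the 4 lines (moderated F test, adjusted p = 0.00324).

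In AMO1 and RPMI-8226 the light chain was lower and the heavy chain higher in BtzR cells. The FTL to FTH1 ratio was 7.359 and 8.277 in AMO1 BtzR, below the 19.81 and 17.25 of the WT libraries. It was 1.757 and 2.018 in RPMI-8226 BtzR against 3.368 and 3.181 in WT. In ARH-77 it was 2.44 and 2.473 in BtzR against 2.978 and 3.267 in WT. In L363 it was 2.082 and 2.274 in BtzR against 2.284 and 2.241 in WT, which overlap. The ratio itself was not tested.

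**Figure D2:**
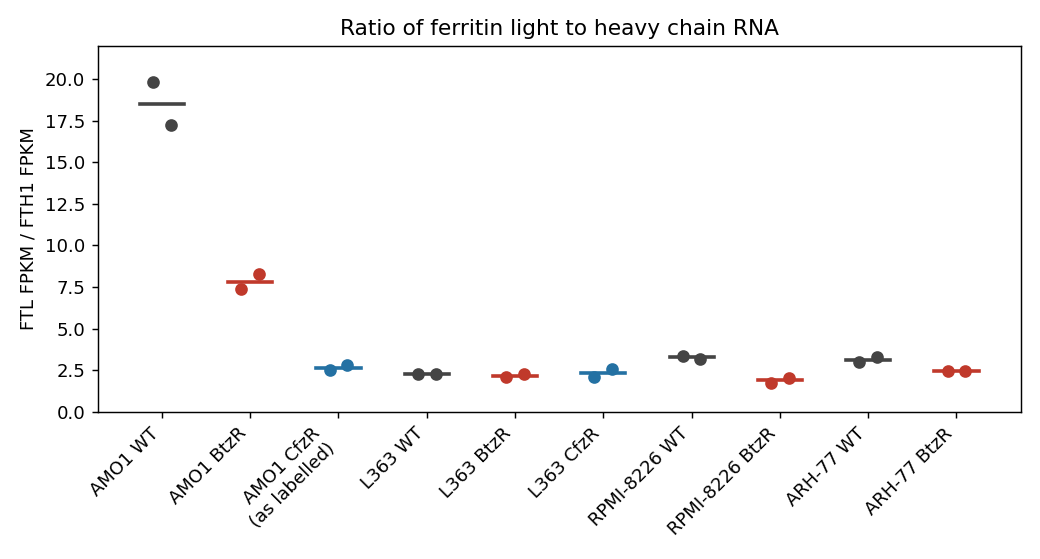
Ratio of FTL to FTH1 FPKM in each library (points) with group means (bars) on a linear axis that starts at 0. AMO1 WT (mean 18.53) and AMO1 BtzR (mean 7.818) stand above all other groups, whose libraries lie between 1.757 and 3.368.

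Carfilzomib-resistant L363 cells had FTL at 279.09 and 289.06 FPKM and FTH1 at 133.38 and 111.75. FTL was below both WT libraries, but its log2-fold change of -0.12 did not pass (95% interval -0.37 to 0.13, adjusted p = 0.718). The FTH1 change was -0.16 (95% interval -0.47 to 0.15, adjusted p = 0.698), and the groups overlapped. The BtzR and CfzR comparisons of L363 share their WT libraries. Set directly against L363 BtzR, the L363 CfzR cells differed in FTL by 0.12 (95% interval -0.13 to 0.37, adjusted p = 0.805) and in FTH1 by 0.02 (95% interval -0.29 to 0.33, adjusted p = 1).

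In the libraries labelled AMO1 CfzR, FTL was at 275.93 and 313.74 FPKM and FTH1 at 110.68 and 112.17, both within or below the range of the 6 L363 libraries. Against AMO1 WT, the log2-fold change of FTL was -4.68 (standard error 0.12) and that of FTH1 -1.86 (standard error 0.15). Against L363 WT, the same libraries gave -0.07 for FTL (adjusted p = 0.92) and -0.29 for FTH1 (adjusted p = 0.359). The first difference is of the size that separated the AMO1 and L363 lines, and resistance and line cannot be told apart in it.

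NCOA4 (NCBI gene 8031) encodes the receptor that carries ferritin to the lysosome, where its iron is released. It varied little, from 36.29 to 57.96 FPKM over the 20 libraries. It was at 38.76 and 36.29 in RPMI-8226 WT and at 45.44 and 40.60 in RPMI-8226 BtzR (log2-fold change 0.19, adjusted p = 0.0384), a rise that did not pass without BtzR replicate 1 (0.11, adjusted p = 0.266). In ARH-77 it was at 51.32 and 47.70 in WT and 56.29 and 57.96 in BtzR (0.20, adjusted p = 0.0829). In the other lines its change in BtzR cells was -0.03 (AMO1) and -0.09 (L363), and neither passed. The effect differed between the lines (adjusted p = 0.0357).

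TFRC (NCBI gene 7037), the transferrin receptor that brings iron into the cell, measured 166.48 and 109.01 FPKM in AMO1 WT, 118.63 and 131.02 in L363 WT, 145.21 and 100.69 in ARH-77 WT, and 56.65 and 53.85 in RPMI-8226 WT. The first 3 lines overlapped and RPMI-8226 lay below them. RPMI-8226 BtzR was at 131.92 and 66.97 FPKM (log2-fold change 0.76, standard error 0.25, adjusted p = 0.0188). Its replicates differed by 0.97 on the log2 scale, more than the change itself, and without BtzR replicate 1 the change was 0.27 (adjusted p = 0.329). In AMO1, L363 and ARH-77, TFRC overlapped between BtzR and WT, with changes of 0.06, -0.08 and 0.09. A difference between lines was not detected (adjusted p = 0.156).

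SLC11A2 (NCBI gene 4891) encodes DMT1, which moves ferrous iron out of endosomes into the cytosol. It had the largest fall of the members in AMO1 BtzR, from 17.32 and 16.44 FPKM in WT to 8.07 and 8.22 (log2-fold change -0.97, standard error 0.11, adjusted p = 3.49e-06). The AMO1 replicates were close together in both groups. In RPMI-8226 it was at 12.62 and 13.68 in WT and 9.66 and 11.92 in BtzR (-0.27, adjusted p = 0.044). This smaller fall did not pass without BtzR replicate 1 (-0.13, adjusted p = 0.374), with no filter on low values (adjusted p = 0.0503) or on the TPM scale (adjusted p = 0.0741). In L363 it was at 14.52 and 13.51 in WT, 15.36 and 14.63 in BtzR and 13.07 and 13.80 in CfzR, and neither change passed. ARH-77 had the lowest WT level, at 6.66 and 8.40 in WT and 8.36 and 8.10 in BtzR (0.12, adjusted p = 0.534). The BtzR effect of this gene differed from line to line (adjusted p = 5.14e-05).

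STEAP3 (NCBI gene 55240) encodes the endosomal reductase that converts ferric to ferrous iron before DMT1 transports it. It rose in ARH-77, from 7.69 and 5.35 FPKM in WT to 10.55 and 9.42 in BtzR (log2-fold change 0.56, standard error 0.16, adjusted p = 0.0264). The 2 ARH-77 WT libraries gave the largest replicate gap for this gene, 0.45 on the log2 scale, and without WT replicate 2 the change was 0.34 (adjusted p = 0.193). In AMO1 it was at 11.66 and 11.64 in WT and 8.22 and 9.34 in BtzR, a change of -0.37 that did not pass (adjusted p = 0.059). In L363 it was at 7.98 and 8.13 in WT, 10.13 and 9.39 in BtzR (0.25, adjusted p = 0.388) and 13.39 and 10.39 in CfzR (0.50, adjusted p = 0.0676). RPMI-8226 overlapped between WT (12.46 and 10.73) and BtzR (14.78 and 11.25). The BtzR effect of this gene differed from line to line (adjusted p = 0.0114).

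SLC40A1 (NCBI gene 30061), which encodes ferroportin, the only known exporter of iron from cells, was listed at 0 in 18 of the 20 libraries. It was at 1.2 and 1.16 FPKM in the 2 RPMI-8226 WT libraries and listed at 0 in both RPMI-8226 BtzR libraries. Only that WT group brought the gene past the filter on low values, so that it had to differ there, and no fold change is given.

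ACO1 (NCBI gene 48) encodes aconitase 1, which turns into iron regulatory protein 1 when it loses its iron-sulfur cluster. It fell in ARH-77, from 11.20 and 15.38 FPKM in WT to 9.18 and 9.75 in BtzR (log2-fold change -0.43, standard error 0.13, adjusted p = 0.0374). WT replicate 2 carried much of this: without it the change was -0.22 (adjusted p = 0.264). In AMO1 it was at 10.94 and 10.96 in WT and at 12.81 and 12.81 in BtzR (0.21, adjusted p = 0.2). In L363 it was at 9.89 and 9.54 in WT, 12.30 and 12.02 in BtzR (0.30, adjusted p = 0.177) and 11.06 and 10.52 in CfzR (0.14, adjusted p = 0.708). RPMI-8226 had the lowest values, 5.89 and 7.06 in WT and 6.56 and 8.51 in BtzR. The BtzR effect of this gene differed from line to line (moderated F test, adjusted p = 0.00852), as it did for 71.1% of all genes. Values of that test without WT replicate 2 are not given for this gene.

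IREB2 (NCBI gene 3658) encodes iron regulatory protein 2, whose protein is degraded by the proteasome when iron is plentiful. Its RNA was even across groups, from 16.64 to 20.27 FPKM in all 16 libraries outside RPMI-8226. RPMI-8226 was lower, at 11.05 and 12.60 in WT and 13.01 and 16.58 in BtzR (log2-fold change 0.29, adjusted p = 0.0246). Without BtzR replicate 2 the change was 0.13 (adjusted p = 0.3). A difference between lines was not detected (adjusted p = 0.0734).

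HFE (NCBI gene 3077) encodes an MHC class I-like protein that binds the transferrin receptor and is mutated in hereditary hemochromatosis. Its mean reached the filter of 1 FPKM in resistant groups of AMO1 and L363 and in no WT group, so it was tested because it is high there. For this gene the adjusted p-values below are those of the fit with no filter on low values. It was at 0.49 and 0.54 FPKM in L363 WT, 1.26 and 1.49 in BtzR (log2-fold change of FPKM + 1 of 0.65, adjusted p = 5.75e-06) and 1.18 and 1.23 in CfzR (0.54, adjusted p = 3.46e-05). Both resistant groups were set against the same WT libraries. In AMO1 it was at 0.72 and 0.84 in WT and 1.14 and 1.13 in BtzR (0.26, adjusted p = 0.0018). With the filter, this did not pass at a pseudocount of 0.1 (0.49, adjusted p = 0.0853) or without WT replicate 1 (0.21, adjusted p = 0.0535). The libraries labelled AMO1 CfzR were at 1.34 and 1.48, above both AMO1 WT (0.44, adjusted p = 2.2e-05) and L363 WT (0.67). All RPMI-8226 and ARH-77 libraries were at 0.08 or below.

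**Figure D3:**
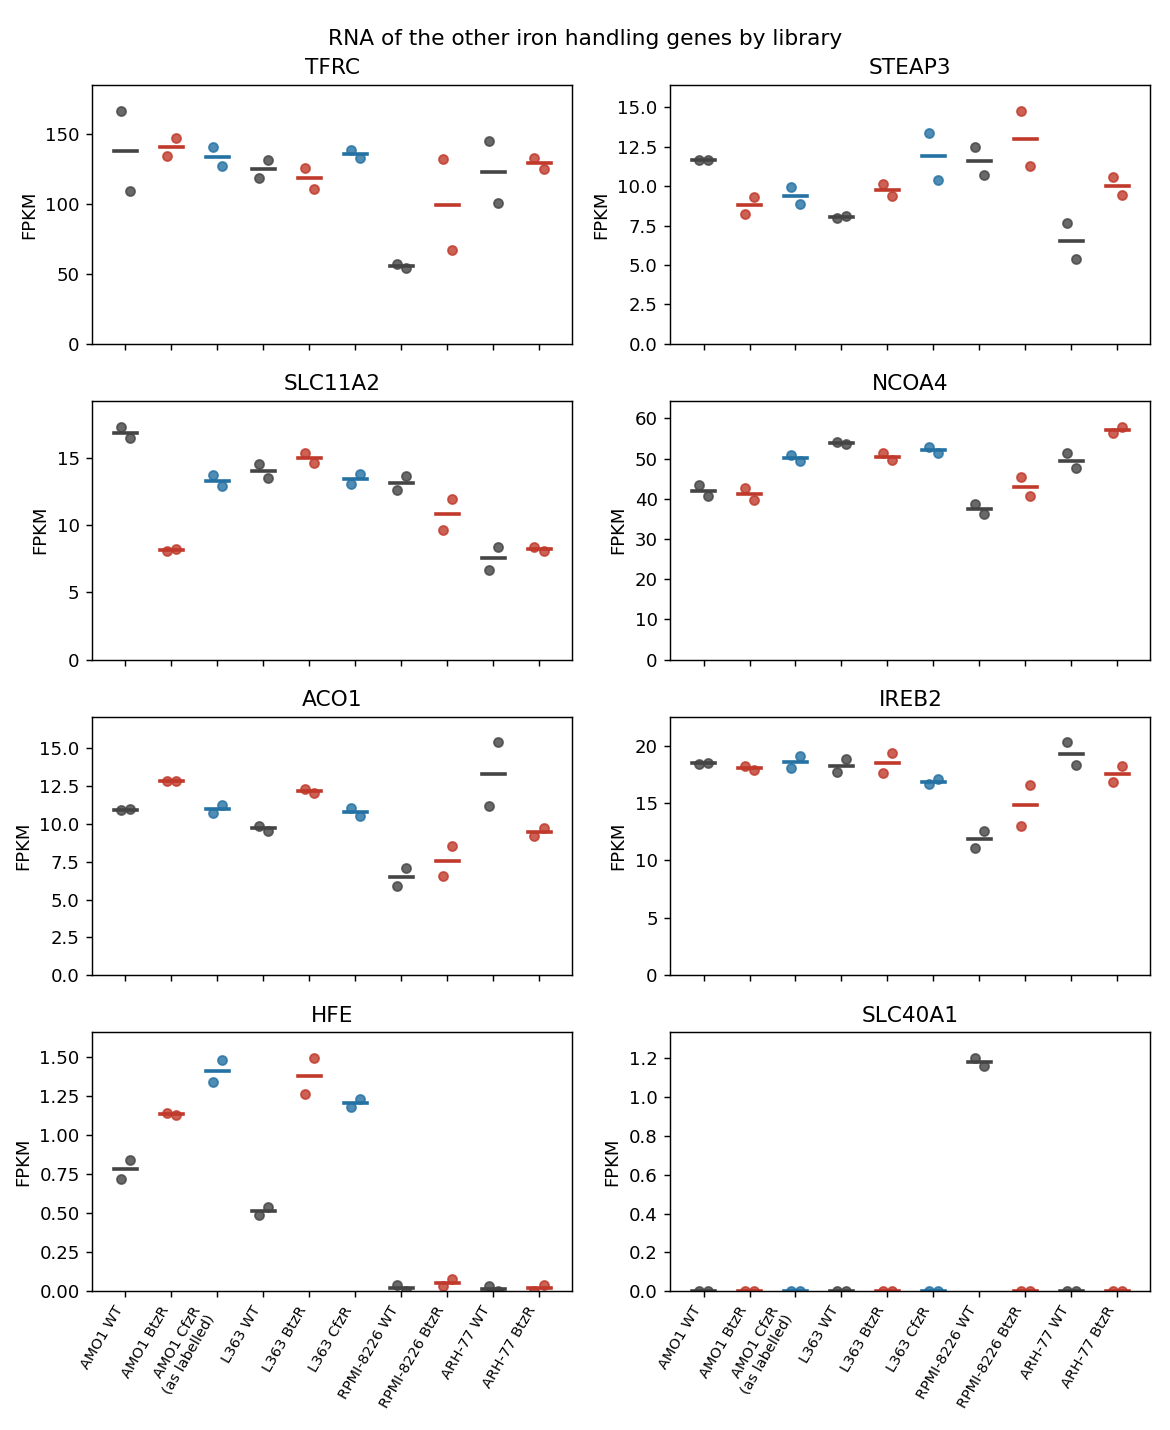
FPKM of the 8 genes other than ferritin in each library (points), with group means (bars), on linear axes that start at 0. SLC11A2 is lower in AMO1 BtzR (8.07 and 8.22) than in AMO1 WT (17.32 and 16.44), and HFE is higher in resistant than in WT libraries of AMO1 and L363, the only groups in which its mean reaches 1 FPKM being resistant ones.

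SLC40A1 and HFE passed the filter on low values through some groups only, so the counts that follow are also given for the 8 genes whose mean was above it in all 10 groups. Counted by comparison, 4 of the 10 genes passed in AMO1 BtzR at an adjusted p under 0.05 (FTH1 and HFE up, FTL and SLC11A2 down), beside 51.2% of all 13089 genes tested, and 3 of the 8. The median log2-fold change was -0.01 over the 10 genes and 0.00 over all genes. None reached a 2-fold change of FPKM + 1 with the same adjusted p, although SLC11A2 came close, whereas 9.18% of all genes did. The share of iron genes that passed was thus no larger than that of all genes.

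In RPMI-8226 BtzR 7 of 10 passed, beside 54.3% of all genes (FTH1, NCOA4, TFRC and IREB2 up, FTL, SLC11A2 and SLC40A1 down). That count includes SLC40A1, which had to differ there and was alone in a 2-fold change, beside 13.8% of all genes, and 6 of the 8 passed. It was 2 to 5 with single libraries left out, where 45.3% to 50.3% of all genes passed, and 2 when the RPMI-8226 libraries were fitted alone, where 47.7% passed. The median change was 0.17 against 0.05 over all genes.

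In ARH-77 BtzR 3 of 10 passed (STEAP3 up, FTL and ACO1 down), beside 13.6% of all genes. All 3 are among the 8. The count fell to 0 without BtzR replicate 1 (7.78% of all genes), without BtzR replicate 2 (8.83%), without WT replicate 2 (15%), and when the ARH-77 libraries were fitted alone (2.04%), and it was 4 without WT replicate 1 (23.9%). The medians were 0.00 over the 10 genes and -0.04 over all genes.

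In L363 HFE alone passed, both in BtzR (1 of 10, beside 11.2% of all genes) and in CfzR (1 of 10, beside 8.47%). HFE was let through the filter by the groups where it is high, and of the 8 genes above the filter in all groups 0 passed in either comparison by limma. Their unadjusted p was under 0.05 for ACO1 in BtzR (0.0374) and for STEAP3 in CfzR (0.00634). The median changes of the 10 genes were 0.01 and -0.02, against 0.00 over all genes in both. When the L363 BtzR and WT libraries were fitted alone, 5 of 10 passed, where 29.6% of all genes passed. In L363 CfzR, HFE was joined by STEAP3 on the TPM scale (adjusted p = 0.047) and without CfzR replicate 2 (adjusted p = 0.0453). Between L363 CfzR and L363 BtzR limma passed 0 of 10, beside 6.13% of all genes, and 0 of 10 had an unadjusted p under 0.05.

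The libraries labelled AMO1 CfzR passed 5 of 10 against AMO1 WT, beside 57.7% of all genes, and 1 of 10 (HFE) against L363 WT, beside 6.92%. Of the 8 these were 4 and 0. The count against AMO1 WT includes FTL, whose spread between lines chose the list, and resistance and line cannot be told apart in that count. NCOA4 changed sign between these references, from 0.25 against AMO1 WT to -0.10 against L363 WT. Averaged over the 4 lines, 5 of 10 passed in BtzR cells (FTH1 and HFE up, FTL, SLC11A2 and SLC40A1 down), beside 52.3% of all genes. Without HFE and SLC40A1 these were 3 of the 8. For 7 of 10, the BtzR effect differed from line to line, beside 71.1% of all genes, and FTL, TFRC and IREB2 were the other three. Again HFE and SLC40A1 were included, and 5 of the 8 differed.

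**Figure D4:**
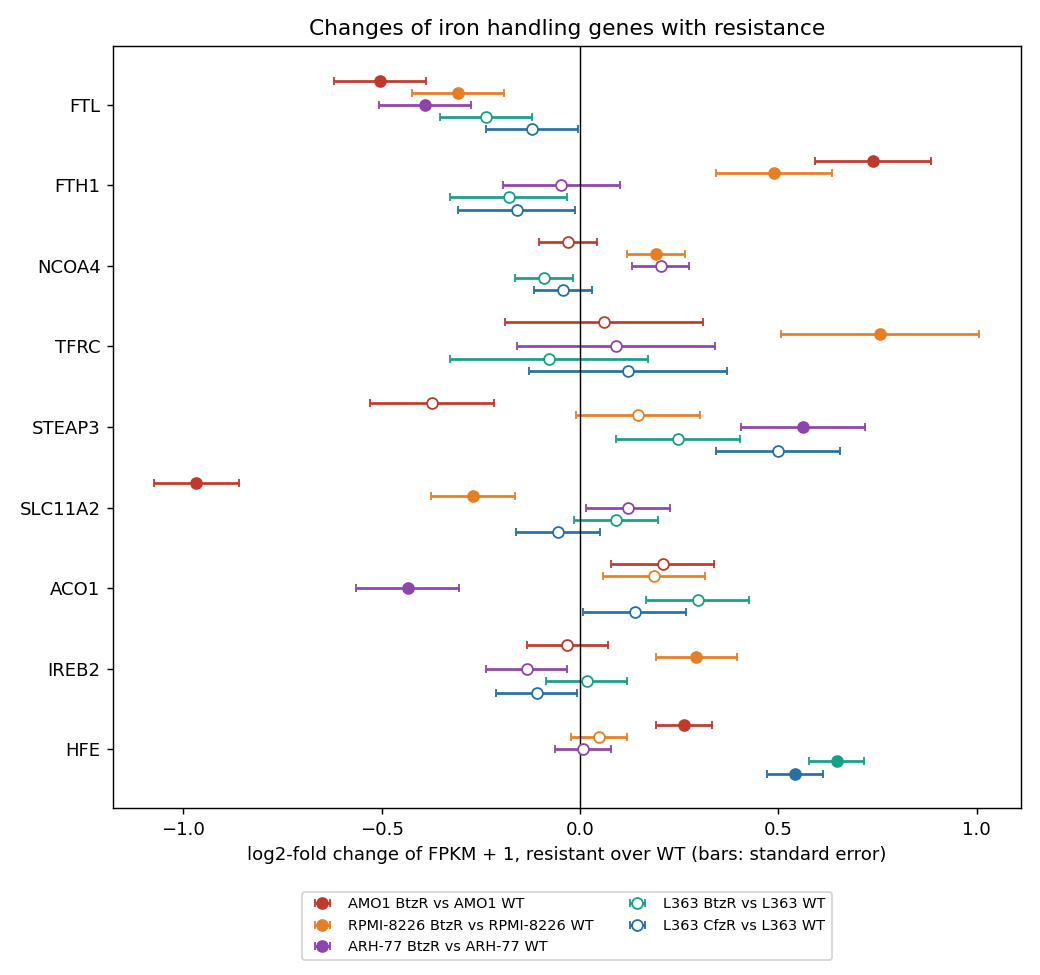
Log2-fold change of FPKM + 1 in resistant over WT cells for 9 of the 10 genes (SLC40A1, listed at 0 in most libraries, is left out), by comparison. Points are limma estimates, bars standard errors, and filled points have an adjusted p under 0.05. All 5 estimates for FTL are below 0, while those for FTH1 run from -0.18 to 0.74.

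The wider list of iron and heme genes held 45 genes, of which 44 are in the table and 34 reached the filter. Some reached it in certain groups only, and no count without them was made. EPAS1 reached it only in RPMI-8226, and it is among both the AMO1 rises and the RPMI-8226 falls below. It was at 0.05 and 0.03 FPKM in AMO1 WT and 0.27 and 0.29 in AMO1 BtzR. In AMO1 BtzR 11 of the 34 rose and 11 fell, beside 25.6% of all genes in each direction, with a median change of 0.06 against 0.00. TFR2, the second transferrin receptor, fell from 5.71 and 6.81 to 2.09 and 2.30 FPKM (log2-fold change -1.18, adjusted p = 6.56e-06). STEAP1, a metalloreductase, fell from 5.35 and 6.63 to 3.11 and 1.24 (-1.20, adjusted p = 0.00479), a change of -0.76 without BtzR replicate 2 (adjusted p = 0.0864). LTF, which encodes the iron-binding protein lactoferrin, rose from 0.49 and 2.12 to 6.49 and 5.20 (1.66, adjusted p = 9.48e-05).

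HMOX1, the inducible heme oxygenase that frees iron from heme, was at 5.16 and 4.75 FPKM in AMO1 WT and at 38.68 and 8.96 in AMO1 BtzR (1.74, standard error 0.48, adjusted p = 0.00728). The resistant libraries differed more than 4-fold, and without BtzR replicate 1 the change was 0.74 (adjusted p = 0.141).

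In RPMI-8226 BtzR 12 of 34 rose and 8 fell, beside 30.2% and 24.2% of all genes, with a median of 0.00 against 0.05. BMP6, a ligand that induces the iron hormone hepcidin in liver, rose from 2.69 and 2.25 to 22.08 and 24.92 FPKM (log2-fold change 2.82, adjusted p = 1.01e-10). HMOX1 rose from 8.82 and 8.94 to 23.73 and 55.73 (1.92, adjusted p = 0.00344), which did not pass without BtzR replicate 2 (1.32, adjusted p = 0.0596). HMOX2, the constitutive heme oxygenase, fell from 45.40 and 38.49 to 14.54 and 12.06 (-1.59, adjusted p = 1.91e-07), so the heme oxygenases moved in opposite directions. LTF, which rose in AMO1 BtzR, fell here from 26.77 and 43.08 to 0 and 0.28 (-4.95, adjusted p = 4.84e-10).

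L363 moved few genes of this list: 1 rose and 3 fell in BtzR, beside 5.66% and 5.52% of all genes, and 3 rose and 1 fell in CfzR, beside 4.88% and 3.58%. The median changes of the list were -0.03 in both, against 0.00 over all genes. TFR2, which fell in AMO1 BtzR, rose from 1.09 and 1.09 FPKM in L363 WT to 4.51 and 3.57 in BtzR (1.26, adjusted p = 1.59e-05) and to 3.78 and 3.17 in CfzR (1.10, adjusted p = 7.82e-05). Its bortezomib effect differed between the lines (adjusted p = 5.82e-07). In ARH-77 BtzR 5 of 34 fell and 0 rose by limma, beside 7.6% and 5.98% of all genes, with a median of -0.12 against -0.04. No gene of the list, and 1.6% of all genes, passed with a 2-fold change. HMOX1 was at 37.58 and 34.81 in ARH-77 WT and at 20.52 and 21.46 in BtzR, a change that did not pass.

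Against AMO1 WT, the libraries labelled AMO1 CfzR had UROS, an enzyme of heme synthesis, higher by 1.99 (adjusted p = 2.63e-10) and BLVRA, a biliverdin reductase, higher by 1.06 (adjusted p = 5.34e-06). STEAP1 was lower, with a change of -2.68 (adjusted p = 3.16e-06), and so was LTF, with -1.08 (adjusted p = 0.00235). None of these 4 passed against L363 WT, where the changes were 0.16, 0.30, -0.10 and -0.08.

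**Figure D5:**
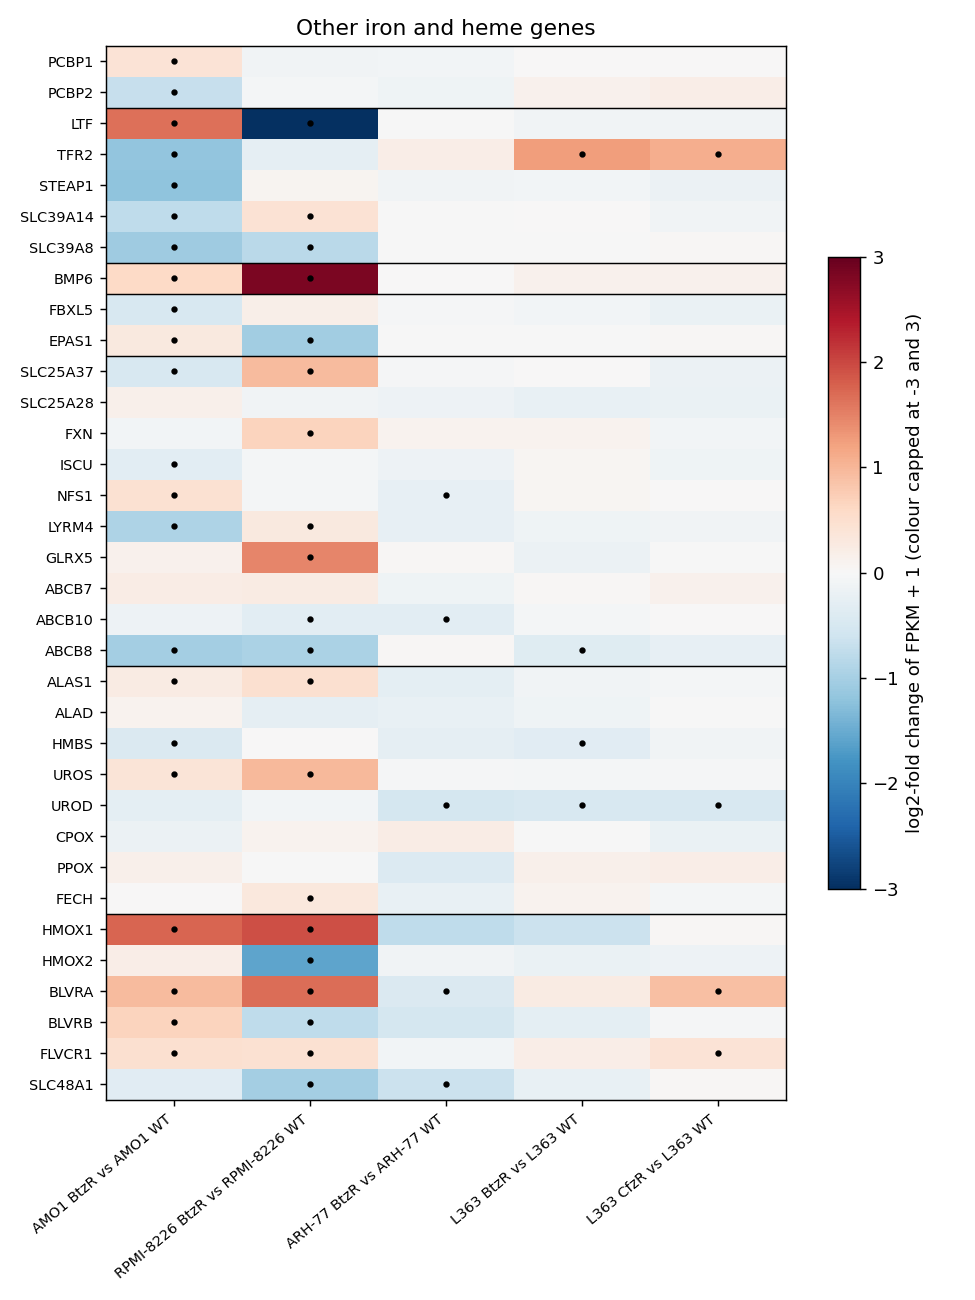
Log2-fold changes of FPKM + 1 for the 34 tested genes of the wider list (rows, grouped by role with lines between groups) in 5 comparisons of resistant with WT cells (columns). Red is higher and blue lower in resistant cells, colour is capped at -3 and 3, and a dot marks an adjusted p under 0.05: there are 22 dots for AMO1 BtzR, 20 for RPMI-8226 BtzR, 5 for ARH-77 BtzR, and 4 for each of the L363 comparisons.

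Genes whose group means followed FTL most closely were chosen by the Pearson r of log2(FPKM + 1) over the 10 groups, which share their libraries and hold groups of the same line. For FTL these were PRR5 (r = 0.995), CIR1 (0.991), TNFRSF10D (0.984), FAM72D (0.984) and MPZL3 (0.982). PRR5, a component of the mTORC2 kinase complex, had mean levels of 27.5 FPKM in AMO1 WT, 12.7 in RPMI-8226 WT, 10.9 in ARH-77 WT and 0.24 in L363 WT. For FTH1 they were NINJ1 (0.987), RBCK1 (0.983) and SMS (0.983). FTL and FTH1 themselves correlated at 0.852 over the 10 groups, and FTL and NCOA4 at -0.671. The 10 groups come from only 4 lines, and these values are a description.

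The genes beside FTL on chromosome 19, in the RefSeq order of GRCh38.p14, did not share its order of lines. BAX, the next gene before it, had means of 118 FPKM in AMO1 WT, 55.0 in L363 WT, 50.2 in ARH-77 WT and 24.5 in RPMI-8226 WT (r = 0.378 with FTL over the 10 groups). GYS1, the next gene after it, had means of 25.1, 26.9, 23.3 and 13.5 FPKM in the same lines (r = -0.509). The others were NUCB1 (-0.223), DHDH (0.731), RUVBL2 (0.294) and LHB (-0.257), of which DHDH and LHB were low in every group, with means from 0.025 to 1.14 FPKM for DHDH and from 0.345 to 1.15 FPKM for LHB.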

How the data were processed

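RNA was extracted from frozen cell pellets and sequenced by BGI on the BGISEQ-500. The authors deposited FPKM values for each library, and the submitters' processing notes name HISAT2 2.0.4, Bowtie2 2.2.5 and RSEM 1.2.12. The genome build is not given in the sources used here. Library totals were used as deposited, with no further scaling.

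Values were transformed as log2(FPKM + 1), which understates changes of low genes, and fitted with limma 3.58.1 in R 4.3.3, with 1 mean for each of the 10 groups over all 20 libraries (10 residual degrees of freedom) and a mean-variance trend. Testing was limited to the 13089 of 18305 genes whose mean reached 1 FPKM in any group. P-values were adjusted by Benjamini-Hochberg over these genes in each comparison, and a gene passed at an adjusted p under 0.05. An interaction F test compared the BtzR effect between the 4 lines. An exact permutation test of 2 against 2 libraries cannot go below 0.33 and was not used. P-values measure the spread between the libraries labelled as replicates. Tables and figures used Python 3.11.15, numpy 2.4.6, pandas 2.3.3 and matplotlib 3.10.9.

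The 10 genes, the wider list and the tests were chosen with earlier results of these data known. From the wider list, the text names the 2 strongest rises and falls of each comparison among those that passed with at least a 2-fold change. HMOX1 in ARH-77 BtzR is the exception, chosen after its values were seen. For FTL the 5 most similar genes and 3 neighbours on each side are named, and for FTH1 the 3 most similar genes.

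On simulated data for AMO1 BtzR against AMO1 WT with 13018 genes tested, the test recovered 29 of 67 genes changed by 0.5 on the log2 scale, 62 of 67 changed by 1 and 64 of 66 changed by 2, and passed 11 of 12818 unchanged genes. The changed genes were few and well above the filter on low values in AMO1, whereas 51.2% of genes passed in the real comparison. These rates may therefore not hold for the reported tests, or for low genes such as HFE and SLC40A1.

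Alternatives were a pseudocount of 0.1, a filter of 5 FPKM or none, a TPM scale, quantile normalization, no trend, a block for the replicate number, a fit without the libraries labelled AMO1 CfzR, L363 WT as their reference, only the libraries compared, and each library left out. The same alternatives for the named genes of the wider list were added after seeing the data.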

Additional observations from a re-analysis of the deposited data

Results flagged for a closer look

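For 7 of the 10 genes, the change in BtzR cells differed from line to line by limma's moderated F test, beside 71.1% of all genes tested. The adjusted p-values were 0.00324 for FTH1, 0.0357 for NCOA4, 0.0114 for STEAP3, 5.14e-05 for SLC11A2, 5.28e-09 for SLC40A1, 0.00852 for ACO1 and 0.000184 for HFE. SLC40A1 is listed at 0 in every library outside RPMI-8226 WT, the group that brought it past the filter, so it had to differ, and HFE passed the filter only through resistant groups. Of the 8 genes above the filter in all groups, 5 differed. Which of these 5 still differ with single libraries left out is not given gene by gene. With single libraries left out, 6 to 8 of the 10 genes differed between lines, beside 65.4% to 78.4% of all genes.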

How the results depend on the processing

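The AMO1 BtzR and 4-line FTL falls kept their direction and passed under each alternative run. The cause of the shifts below was not tested. The count of the 10 genes that passed was 0 for both L363 comparisons with a filter of 5 FPKM, which removes HFE, and 3 over the mean of the 4 lines. In fits of only the libraries compared, which have fewer samples, it was 5 in L363 BtzR, 2 in L363 CfzR, 2 in RPMI-8226 BtzR and 0 in ARH-77 BtzR. It was 2 in L363 CfzR on the TPM scale, and 1 for the libraries labelled AMO1 CfzR against L363 WT.

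FTL in RPMI-8226 BtzR did not pass with no filter (-0.31, adjusted p = 0.0634), on the TPM scale (-0.29, adjusted p = 0.0549) or in the fit of only its libraries (-0.31, adjusted p = 0.0664). FTL in ARH-77 BtzR did not pass with no filter (-0.39, adjusted p = 0.0634) or in its own fit (-0.39, adjusted p = 0.122), and FTL in L363 BtzR passed in its own fit (-0.24, adjusted p = 0.0292). For the libraries labelled AMO1 CfzR against L363 WT, the FTL change was -0.070 (adjusted p = 0.92) and that of NCOA4 turned to -0.098.

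With each library left out in turn, FTL ran from -0.37 to -0.25 in RPMI-8226 BtzR and from -0.46 to -0.32 in ARH-77 BtzR. The counts ran from 1 to 2 in L363 CfzR, 2 to 5 in RPMI-8226 BtzR and 0 to 4 in ARH-77 BtzR. Of 35 changes named for single genes, 26 of 188 values with a library left out and 20 of 308 under other alternatives no longer passed. These 35 changes leave out FTL, whose alternatives are given above, and hold SLC40A1, which had to differ in RPMI-8226. Of 706 values for genes other than FTL that did not pass, 26 changed sign, with SLC40A1 left out of that count, and 18 passed under an alternative.

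The replicate number as a block left 51 of 52 results on the same side and took the count in L363 CfzR from 1 to 2. Neither labels nor methods say that equal numbers mark a shared culture or day. Deviations of same-numbered libraries correlated at -0.00554 in AMO1 BtzR and at 0.12 to 0.245 in the other comparisons, so the pairing was not assumed. Depth is unknown, and low genes such as HFE and SLC40A1 are the least certain.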
